A study of Mus musculus with 7 samples.

Results

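The genes described here are 4 growth factors that oocytes secrete, *Gdf9*, *Bmp15*, *Bmp6* and *Fgf8*, and the receptor tyrosine kinase *Kit*. They were taken by gene symbol, and all 5 have a value among the 22877 rows of the authors' deposited table. Oocytes were taken from secondary follicles of 8-week-old female mice for RNA sequencing. The Mfn1-/- mice were Mfn1 fl/fl animals carrying Zp3-Cre, the wild-type (WT) mice were their littermates, and all samples are labelled C57BL/6J. The Zp3 promoter drives Cre in oocytes and acts once follicles have begun to grow, so earlier stages keep the gene. Each library was made from 5 pooled oocytes, with cDNA amplified by the Smart-Seq2 protocol. The sample labels give 4 WT and 3 Mfn1-/- libraries, while the methods and the series description speak of n = 3 for each genotype.

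An oocyte is not passive in its follicle. GDF9 and BMP15 are ligands of the transforming growth factor beta (TGF-beta) superfamily that the oocyte secretes, and they act through serine/threonine kinase receptors and SMAD proteins on the surrounding granulosa cells, promoting their proliferation and cumulus cell function. BMP6 is a related ligand, and FGF8 is a fibroblast growth factor that acts together with BMP15 on cumulus cell glycolysis. Signals also run the other way: KIT on the oocyte surface binds Kit ligand from granulosa cells and promotes oocyte growth through phosphoinositide 3-kinase.

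The table gives 1 mean of normalized counts per genotype and gene, from which no spread between libraries or standard error can be computed, and no test was made here. The authors' own test columns were not used. The targeted gene was checked first. *Mfn1* (chr3:32529465-32579239, GRCm38) had a mean of 0.616 in WT and 0.0577 in Mfn1-/- oocytes, a log2 fold change of -2.18. Log2 fold changes here compare Mfn1-/- with WT after a pseudocount of 0.1 was added to both means. At low values the pseudocount shrinks the fold change. No mean is under 0.01, so a gene with a WT mean of 0.1 or less cannot pass 2-fold lower with this pseudocount. The value for *Mfn1* was -0.61 with a pseudocount of 1, -3.21 with one of 0.01 and -3.42 with none. The authors' scale is not named, and the low values of the table show what it holds. Every value starts from 0.01, and after this was subtracted and the rest multiplied by exon length, genes with a single annotated transcript piled up at a few sizes, each the worth of 1 read in 1 library. On 1 kb of exon, 1 read added 0.0299, 0.0340 or 0.0362 to the Mfn1-/- mean. In WT the sizes were 0.0242, 0.0256, 0.0271 and 0.0281. The search was set to return as many sizes as there are labelled libraries, so their number is no check of the labels. The next densest window held 17 genes in Mfn1-/-, against 53 to 60 in the windows kept. In WT the next held 19, against 34 to 67. The sizes appear after multiplication by length, so the values are per length and genes can be set side by side on this scale. If the scale also divides by library size as RPKM does, the sizes correspond to between 9210000 and 11100000 counted reads in the Mfn1-/- libraries and between 8910000 and 10300000 in the WT libraries. A read weighs less in a mean over 4 libraries than in a mean over 3.

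**Figure D1:**
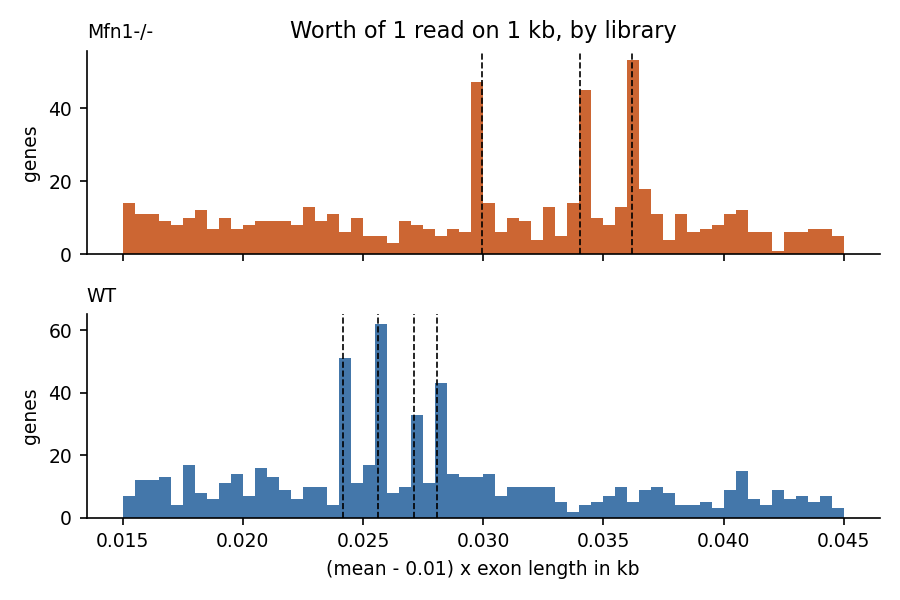
Genes with 1 annotated transcript of less than 2500 bases, by genotype mean minus 0.01 multiplied by exon length in kb (x axis, the worth of 1 read on 1 kb), with the number of genes on the y axis. The dashed lines mark the 3 sizes found in Mfn1-/- (0.0299, 0.0340 and 0.0362) and the 4 found in WT (0.0242, 0.0256, 0.0271 and 0.0281).

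The members covered a wide range of levels. In WT oocytes *Gdf9* had the highest mean, 461, followed by *Bmp15* with 181, *Fgf8* with 27.8, *Kit* with 0.922 and *Bmp6* with 0.264. The order was the same in Mfn1-/- oocytes, where the means were 533, 158, 21.7, 0.679 and 0.238. Thus 3 of the 4 growth factor genes stood far above *Kit*, and *Bmp6* stood below it in both genotypes. None of the 5 members passed 2-fold with the pseudocount of 0.1, either higher in Mfn1-/- (0 of 5, against 4.87% of all 22877 rows) or lower (0 of 5, against 2.75%). Of the 6255 rows whose 2 genotype means average at least 1, 5.77% were past 2-fold higher and 3.15% lower, and 3 of the 5 members belong to these rows. The Mfn1-/- mean was the higher one for *Gdf9* and the lower one for the other 4 members.

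**Figure D2:**
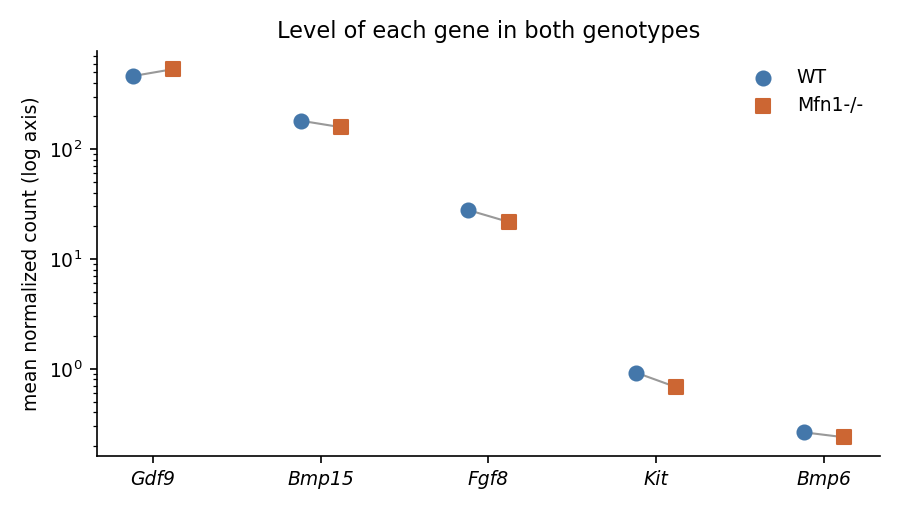
Mean normalized count per genotype (y axis, log scale) for the 5 genes, ordered by WT level, with WT as circles and Mfn1-/- as squares. Each symbol is 1 mean over libraries, so no error can be drawn. *Gdf9* is at 461 and 533, and *Bmp6* at 0.264 and 0.238.

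A shift shared by many genes lies under these values. The median log2 fold change was 0.16 over the rows with an average of at least 1, and scaling both genotypes to the same total moved every large value by 0.13. The split of the genes past 2-fold depended on the scaling. As measured, 1114 rows were higher and 628 lower. After scaling to the same total there were 887 and 757, and after subtraction of the 0.16 median 811 and 926. Over all rows, most of which average under 1, the median was 0.04. The median of 0.16 belongs to the rows with an average of at least 1. Relative to it, the log2 fold changes were 0.05 for *Gdf9*, -0.36 for *Bmp15*, -0.27 for *Bmp6*, -0.52 for *Fgf8* and -0.56 for *Kit*. *Bmp6* and *Kit* average under 1 and are not among those rows. Over the genes within 2-fold of their own WT level the median was 0.02 for *Bmp6* and 0.07 for *Kit*, and their quartiles were -0.31 and 0.38 for *Bmp6* and -0.26 and 0.40 for *Kit*. *Gdf9* thus lay close to the typical expressed gene, *Bmp15* and *Fgf8* below it, *Kit* below the lower quartile of genes of its level and *Bmp6* between the quartiles. In these bulk libraries, fewer oocytes with a transcript and less of it per oocyte cannot be told apart.

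**Figure D3:**
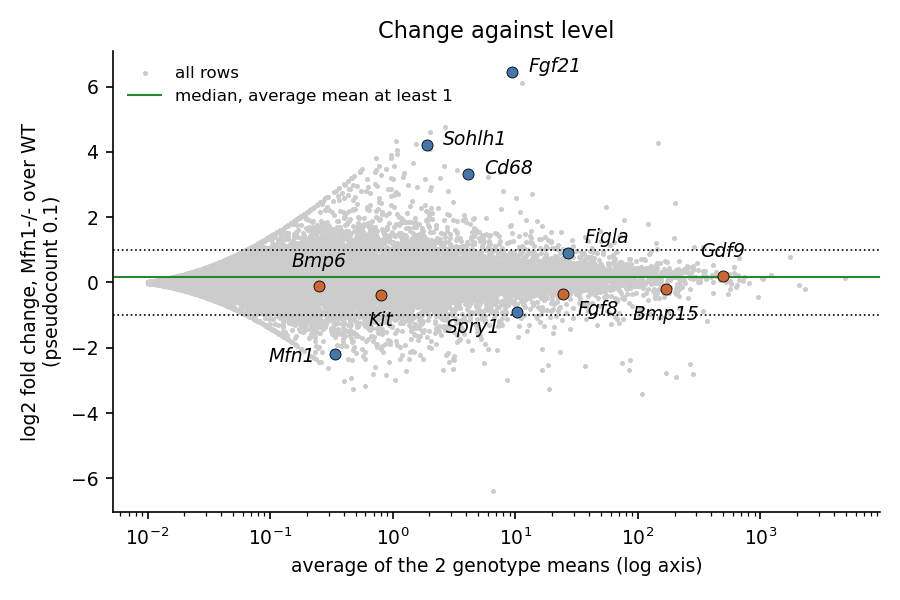
Log2 fold change with a pseudocount of 0.1 (y axis) against the average of the 2 genotype means (x axis, log scale) for all 22877 rows (grey). The 5 members are orange, other named genes blue, the dotted lines mark 2-fold and the green line is the median of 0.16. The members lie between the dotted lines, while *Fgf21* is at 6.46 and *Sohlh1* at 4.20.

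*Gdf9* (chr11:53431023-53437904, plus strand) ranked 30 of 22877 in WT and 26 in Mfn1-/- oocytes, and 19 and 16 among the 15598 protein-coding rows. The ratio of the Mfn1-/- mean to the WT mean was 1.16, a log2 fold change of 0.21. Of the 65 other genes within 2-fold of its WT level, 70.8% had a lower log2 fold change, and their median was 0.10. *Gdf9* is therefore among the most abundant oocyte transcripts in both genotypes. The genes nearest to it over the 2 genotype means were *Khdc3*, which encodes a member of the oocyte's subcortical maternal complex (567 in Mfn1-/- and 477 in WT), the pseudogene *Dynlt1-ps1* (487 and 459) and *Gm10177* (534 and 525). The respiratory chain gene *Uqcrq* starts 191 bases away on the opposite strand, with a mean of 115 in Mfn1-/- and 90.6 in WT.

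*Bmp15* (chrX:6314107-6320721, minus strand) encodes the closest partner of GDF9, with which it can form a heterodimer. It ranked 116 in WT and 151 in Mfn1-/- oocytes, and the ratio of means was 0.873, a log2 fold change of -0.20. Of 220 other genes within 2-fold of its WT level, 21.4% had a lower log2 fold change. The *Gdf9* mean was 2.55 times the *Bmp15* mean in WT and 3.37 times in Mfn1-/-, a change of 1.32-fold in this ratio. This was not particular to *Bmp15*. The ratio of *Gdf9* to *Bmp6* changed by 1.28-fold, to *Fgf8* by 1.48-fold and to *Kit* by 1.57-fold. No spread between libraries is known for these ratios. The nearest genes to *Bmp15* were *Gm21399*, *Oas1e* and *Mphosph6*, with WT means of 181, 179 and 181 and Mfn1-/- means of 156, 152 and 165.

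Promoter sequences from RefSeq (GRCm38.p6), 250 bases before to 50 after the start, were found for 3 of the 5 members and show an abundant ligand gene beside the low members *Bmp6* and *Kit*. Capitals mark the letters of 2 motifs that oocyte transcription factors are known to bind, searched on both strands: the E-box CANNTG, the kind of site bound by the helix-loop-helix factors FIGLA and SOHLH1, and the element TAATTA or TAATTG of the homeobox factor NOBOX. The *Bmp15* window is chrX:6320675-6320974 (minus strand), the *Bmp6* window chr13:38345466-38345765 (plus strand), and the *Kit* window chr5:75574737-75575036 (plus strand), the first of 2 starts listed for *Kit*. The *Bmp6* window lies wholly inside the gene as GENCODE M21 annotates it, since that annotation places the start of *Bmp6* further upstream than RefSeq does.
Bmp15: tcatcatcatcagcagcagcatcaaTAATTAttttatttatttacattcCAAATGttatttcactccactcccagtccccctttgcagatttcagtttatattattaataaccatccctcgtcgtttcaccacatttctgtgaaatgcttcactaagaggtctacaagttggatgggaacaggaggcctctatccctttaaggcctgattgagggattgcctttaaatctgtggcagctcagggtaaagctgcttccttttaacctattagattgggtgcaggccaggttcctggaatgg
Bmp6: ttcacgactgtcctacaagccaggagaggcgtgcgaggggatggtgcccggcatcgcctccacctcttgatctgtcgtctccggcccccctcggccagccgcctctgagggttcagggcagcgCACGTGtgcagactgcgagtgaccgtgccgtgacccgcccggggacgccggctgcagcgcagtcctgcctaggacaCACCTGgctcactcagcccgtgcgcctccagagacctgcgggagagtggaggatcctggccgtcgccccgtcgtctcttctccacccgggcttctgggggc
Kit: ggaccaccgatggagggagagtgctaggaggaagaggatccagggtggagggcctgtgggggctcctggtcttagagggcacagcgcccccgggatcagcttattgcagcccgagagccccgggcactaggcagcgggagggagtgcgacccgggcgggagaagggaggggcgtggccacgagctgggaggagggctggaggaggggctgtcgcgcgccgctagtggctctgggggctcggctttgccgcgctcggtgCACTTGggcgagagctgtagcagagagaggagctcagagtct
The *Bmp15* window holds 1 NOBOX element and 1 E-box and has 41.7% G and C, against a median of 52.7% over all promoters. The *Bmp6* window holds 2 E-boxes and the *Kit* window 1, with 69.3% and 69.0% G and C and 0 NOBOX elements. Of all 32851 promoters of this length, 12.4% hold a NOBOX element and 72.3% an E-box, so the E-box is common and a match describes only the letters.

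**Figure D4:**
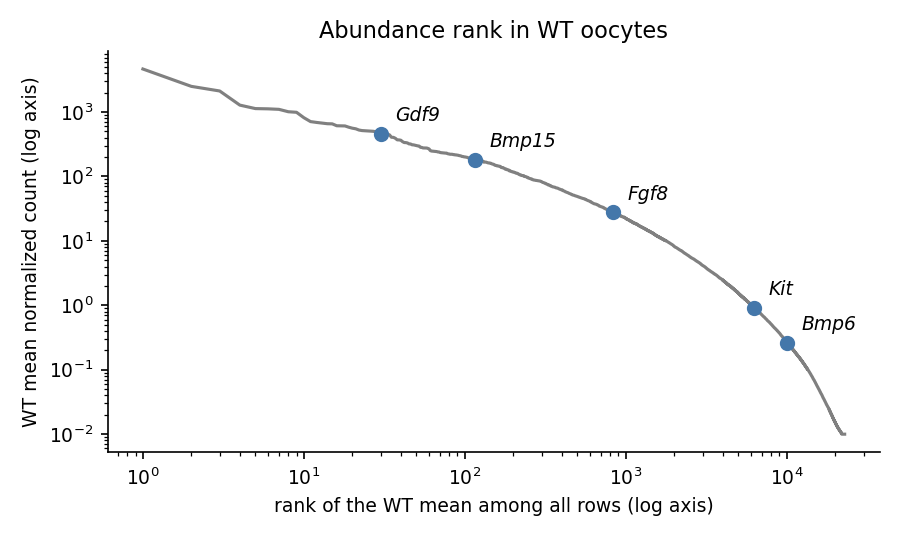
WT mean normalized count (y axis, log scale) against the rank of that mean among all 22877 rows (x axis, log scale). The line is the whole table and the points are the 5 members, at ranks 30, 116, 828, 6259 and 10079.

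*Fgf8* (chr19:45736798-45742915, minus strand) ranked 828 in WT and 1111 in Mfn1-/- oocytes. The ratio of means was 0.781, a log2 fold change of -0.36. Of 980 other genes within 2-fold of its WT level, 9.49% had a lower log2 fold change and 90.5% a higher one, so among the members *Fgf8* lay furthest toward the low end of the genes of its own level. The nearest genes were *Cycs*, which encodes cytochrome c (21 in Mfn1-/- and 28 in WT), *Gm1070* (22.5 and 27.2) and *Lamtor5* (23.4 and 26.9).

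*Kit* (chr5:75574916-75656722, plus strand) ranked 6259 in WT and 7482 in Mfn1-/- oocytes, above 72.6% and 67.3% of rows. The ratio of means was 0.736 and the log2 fold change -0.39, and 18.4% of 3672 other genes within 2-fold of its WT level had a lower value. In WT the *Gdf9* mean was 500 times that of the receptor, while the *Kit* mean was 3.49 times that of *Bmp6*. Its nearest genes were *Slf2* (0.68 in Mfn1-/- and 0.926 in WT), *Magea1* (0.672 and 0.929) and *Slc25a32* (0.688 and 0.905).

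*Bmp6* (chr13:38345107-38500302, plus strand) had the lowest level of the members, at rank 10079 in WT and 10803 in Mfn1-/- oocytes. The ratio of means was 0.902 and the log2 fold change -0.11, and 39.5% of 4650 other genes within 2-fold of its WT level had a lower value. The last exon of *Bmp6* shares 224 of the gene's 3900 exon bases with the last exon of *Txndc5*, a protein disulfide isomerase gene on the opposite strand, and the library kit does not mark strand. *Txndc5* had a mean of 3.09 in Mfn1-/- and 3.42 in WT, a ratio of 0.904 that is close to the 0.902 of *Bmp6*. If reads of *Txndc5* lay evenly over its exons and those in the shared stretch were counted for *Bmp6*, they would add 0.196 to the WT mean of *Bmp6* and 0.177 to the Mfn1-/- mean, which is 77.1% and 77.6% of its level above 0.01. Whether reads were counted this way was not tested. The nearest genes to *Bmp6* were *Bbs2*, *Zfp141* and *Gm13578*, all with WT means between 0.263 and 0.27. For the other 4 members, 0 genes shared a stretch of 50 bases in the annotated transcripts.

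The number of reads behind each member was estimated from the worth of a read and the longest annotated transcript. For *Bmp6* the estimates were 34.8 reads over the 4 WT libraries and 24.5 over the 3 Mfn1-/- libraries, and for *Kit* 182 and 105. For *Fgf8* they were 1236 and 758.6, while *Bmp15* had 21098 and 14477 and *Gdf9* 31487 and 28616. Whether the authors counted the reads of a pair singly or as 1 was not tested, so the exact binomial 95% interval of the ratio of means was computed both ways, and with the exon union in place of the longest transcript. For *Bmp6* the widest interval ran from 0.391 to 1.995 and the narrowest from 0.531 to 1.52, so its difference was within counting error at this depth. For *Kit* the interval ran from 0.507 to 1.03 with pairs on the longest transcript and from 0.608 to 0.886 with single reads on the exon union. Its upper limit was 0.954 with pairs on the exon union and 0.938 with single reads on the longest transcript, so whether the interval of *Kit* holds 1 depends on this choice. For *Fgf8* the widest interval ran from 0.685 to 0.888, for *Bmp15* from 0.847 to 0.899 and for *Gdf9* from 1.13 to 1.18. These intervals cover counting error only, and amplified cDNA reads are not independent molecules.

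The other TGF-beta superfamily ligands were mostly low or without a value. Of the 33 ligand genes listed, 19 have a row, 1 was past 2-fold higher and 1 lower, and the median log2 fold change was 0.10, against 0.04 over all rows. After *Gdf9* and *Bmp15* the most abundant ligand in WT was *Tgfb2*, with a mean of 7.68 in Mfn1-/- and 6.64 in WT. *Gdf9* and *Bmp15* therefore make up nearly all of the summed level of the listed ligands, 653 in WT and 705 in Mfn1-/-. The ligands past 2-fold, *Gdf1* (0.857 in Mfn1-/- and 0.1 in WT) and *Bmp5* (0.158 and 0.511), average under 1 and were named after their values were seen. With a pseudocount of 1, neither was past 2-fold. All 1349 exon bases of *Gdf1* also belong to *Cers1*, a ceramide synthase gene on the same strand with means of 0.0218 and 0.0228, and 63 of them overlap *Upf1* on the opposite strand, which had 0.617 and 0.731. Spread evenly over its exons, reads of *Upf1* in that stretch would make 3.35% of the *Gdf1* level above 0.01 in Mfn1-/- and 37.4% in WT, and those of *Cers1* 1.39% and 14.2%.

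Receptors and signal carriers of this family were low in oocytes of both genotypes. Of 14 receptor genes, 11 have a row, 0 were past 2-fold and the median log2 fold change was -0.06. The highest was *Bmpr1a*, a type I receptor, with a mean of 0.258 in Mfn1-/- and 0.336 in WT. In WT it was followed by *Bmpr1b*, with 0.181 in Mfn1-/- and 0.24 in WT. *Bmpr2*, the type II receptor through which GDF9 and BMP15 signal on granulosa cells, had 0.0835 and 0.203, a log2 fold change of -0.72 that became -1.19 with a pseudocount of 0.01. All 12 SMAD pathway genes have a row, 0 were past 2-fold and the median was 0.00. Among them were the signal carriers *Smad2* (1.73 in Mfn1-/- and 1.40 in WT) and *Smad4* (0.4 and 0.406) and the repressor *Ski* (1 and 1.10).

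Proteins that cut or bind the ligands were also low. GDF9 and BMP15 are made as proproteins, which furin-like convertases cleave. Of 9 convertase genes, 7 have a row and 0 were past 2-fold, with a median of -0.01. *Furin* had a mean of 0.387 in Mfn1-/- and 0.398 in WT, *Mbtps1* 0.223 and 0.206, and *Pcsk7* 0.0698 and 0.096. Only *Furin* and *Mbtps1* had WT means above 0.1, so the other convertase genes could not have passed 2-fold lower. *Pcsk7* shares 415 of its 5202 exon bases with *Rnf214* on the opposite strand, whose reads over that stretch would add 0.0909 and 0.0886, more than the level above 0.01 of *Pcsk7* itself, so that level is uncertain. Of 12 antagonist genes, 5 have a row and 0 were past 2-fold, with a median of 0.32. These include the activin-binding protein gene *Fstl3* (1.36 in Mfn1-/- and 1.07 in WT), the pseudoreceptor gene *Bambi* (0.808 and 0.456) and *Twsg1* (0.574 and 0.38).

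The FGF ligands held the largest difference among the listed genes. Of 22 ligand genes, 14 have a row, 1 was past 2-fold higher and 0 lower, and the median was 0.02. The gene past 2-fold was *Fgf21*, an endocrine FGF that cells make under metabolic and mitochondrial stress in several tissues, with a mean of 18.6 in Mfn1-/- and 0.113 in WT and a log2 fold change of 6.46. *Fgf8* was the most abundant FGF in both genotypes. In WT the next was *Fgf9*, with 0.265 in Mfn1-/- and 0.34 in WT, and then *Fgf7*, with 0.148 and 0.176. The summed level of the FGF ligands without *Fgf8* was 0.855 in WT and 19.4 in Mfn1-/-. FGF21 needs the co-receptor beta-klotho, whose gene *Klb*, named after its value was seen, had a mean of 0.0314 in Mfn1-/- and 0.0454 in WT.

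Among the FGF receptor and feedback genes, 15 of 19 have a row, 0 were past 2-fold and the median was -0.10, with a lower Mfn1-/- mean for 10 of the 15 against 9810 of all 22877 rows. Only *Spry1*, *Spry4* and *Spred1* of this list had WT means above 0.1, so the others could not have passed 2-fold lower. Sprouty and Spred proteins are feedback inhibitors that receptor tyrosine kinase signaling induces. *Spry1*, the most abundant of the list, had a mean of 7.09 in Mfn1-/- and 13.5 in WT, a log2 fold change of -0.92. Relative to the median of expressed genes, its value was -1.08, past 2-fold. *Spry4* had 3.16 and 5.23, a log2 fold change of -0.71, and *Spred1* had 0.0889 and 0.143. The 3 most abundant feedback genes thus had lower means in the same direction as *Fgf8*, and a link between them was not tested.

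All 30 genes of the KIT signaling list, which holds *Kit* itself, its adaptors, kinases and effectors, have a row. Of these, 0 were past 2-fold and the median was 0.02. *Socs1*, a suppressor of cytokine signaling that binds KIT, was the most abundant, with a mean of 27.3 in Mfn1-/- and 17.3 in WT and a log2 fold change of 0.66. *Pik3cd*, a catalytic subunit of phosphoinositide 3-kinase, had 1.85 and 1.83, and *Foxo1* had 0.931 and 1.19. The gene of the ligand, *Kitl*, had a mean of 0.0353 in Mfn1-/- and 0.0482 in WT, and was named after its value was seen.

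Transcription factors that control oocyte growth factor genes were measured in all 10 cases listed, with 1 past 2-fold higher, 0 lower and a median of 0.08. The gene past 2-fold was *Sohlh1*, a germ cell helix-loop-helix factor of early follicles, with a mean of 3.68 in Mfn1-/- and 0.105 in WT and a log2 fold change of 4.20. *Nobox* had means of 124 and 94.9, a log2 fold change of 0.39. *Figla*, which controls the zona pellucida genes, had 34.9 and 18.7, a log2 fold change of 0.90. *Pou5f1* had 10.5 and 8.96. None of these 3 was past 2-fold, and their part in the levels of the growth factor genes was not tested.

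**Figure D5:**
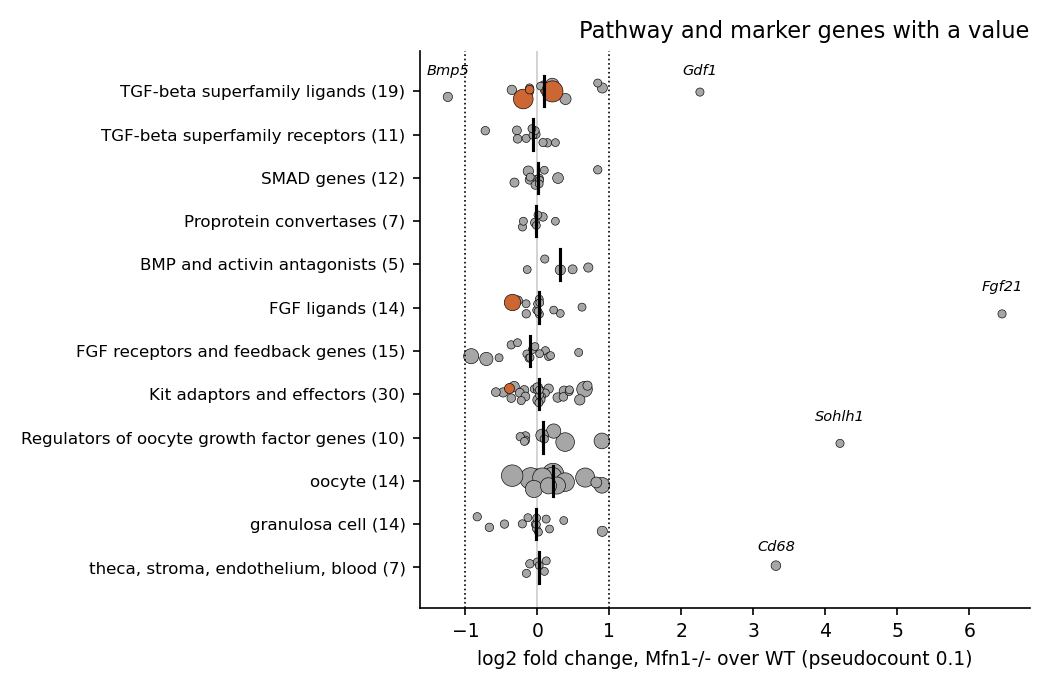
Log2 fold change with a pseudocount of 0.1 (x axis) for each gene with a value in the pathway and marker lists, with the number of genes in brackets. Larger points have a higher WT mean, the 5 members are orange, black bars are list medians and dotted lines mark 2-fold. The genes past 2-fold are *Gdf1*, *Fgf21*, *Sohlh1* and *Cd68*, which are higher in Mfn1-/-, and *Bmp5*, which is lower.

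The label of the samples was checked against markers. All 14 oocyte markers have a row, 0 were past 2-fold and the median log2 fold change was 0.21. The most abundant in WT were *Ooep* (1310 in Mfn1-/- and 1120 in WT), *Dppa3* (812 and 816) and *Mos* (631 and 673). The list summed to 4755 in Mfn1-/- and 4481 in WT. The libraries were thus rich in oocyte transcripts in both genotypes. Of 16 granulosa cell markers, 14 have a row and 0 were past 2-fold, with a median of -0.01 and a sum of 2.47 in Mfn1-/- and 1.83 in WT. *Inha* made up most of this sum, with means of 1.87 and 0.954, followed in WT by *Cyp19a1* (0.0846 and 0.193) and *Nr5a2* (0.0974 and 0.171), and without *Inha* the sums were 0.596 and 0.873. Granulosa cell transcripts were therefore present at traces only, and none of the 14 was at the lowest value of 0.01. The count of 0 past 2-fold depends on the pseudocount. *Cyp19a1* had a log2 fold change of -0.67 with 0.1, -1.10 with 0.01 and -1.19 with none. Without a pseudocount the ratio of the Mfn1-/- to the WT mean was 0.271 for *Hsd17b1* and 2.87 for *Foxl2*, both named after their values were seen. Of 14 markers of theca, stroma, endothelium and blood, 7 have a row, and 1 was past 2-fold higher and 0 lower, with a median of 0.03. This was *Cd68*, which encodes a lysosomal protein of macrophages, with a mean of 7.58 in Mfn1-/- and 0.672 in WT. The blood cell markers *Ptprc*, *Hba-a1* and *Hbb-bs* of the same list have no row. The other 6 genes with a row summed to 0.379 and 0.395, led by *Pecam1* (0.168 and 0.188) and *Star* (0.0845 and 0.105). The part of other cell types in the values of the members was not tested.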

How the data were processed

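Reads were trimmed with Cutadapt, filtered and aligned to GRCm38 with STAR by the authors. The authors' deposited signal values are, for every gene, the average of normalized counts in each genotype together with their total, which in 100% of rows equals 3 Mfn1-/- means plus 4 WT means within 1%. The normalization and gene annotation are not given in the sources used here. The deposited columns of p-value, FDR, ratio and signed fold change hold the authors' own comparison and were not used.

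Groups were taken from sample titles. The log2 fold change was computed from the 2 means after a pseudocount of 0.1, and a gene was called past 2-fold without a test. The worth of a read was found as the densest windows of mean minus 0.01 multiplied by exon length, as many as there are labelled libraries. Positions and lengths come from GENCODE M21, in which 21895 of the 22877 row names were found once. Levels were ranked over all rows.

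The members and lists were chosen with earlier results of these data known. Named genes are the members, *Mfn1*, in each list the 3 most abundant in WT and those past 2-fold with an average mean of at least 1, genes overlapping a member, and for each member the 3 genes at the smallest Euclidean distance in log2(mean + 0.1). *Uqcrq*, *Cers1*, *Upf1*, *Rnf214* and the genes marked so in the text were named after their values were seen. Alternatives were pseudocounts of 0.01 and 1, no pseudocount, scaling to the same total, subtraction of the median, minimum average means of 0.1 and 1 and a 1.5-fold threshold. Added after seeing the data were protein-coding genes only, subtraction of 0.01 from every mean and the other bases of the counting interval. So was every alternative run for the pathway lists and for genes other than the members. The marker lists were counted under the main settings only. The code was tested on simulated data. The software was matplotlib 3.10.9, scipy 1.17.1, pandas 2.3.3 and numpy 2.4.6 under Python 3.11.15.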

Additional observations from a re-analysis of the deposited data

How the results depend on the processing

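Under the 6 alternatives run for each member, all 30 log2 fold changes stayed within 2-fold. Their sign was also kept, but only *Gdf9* could have changed sign. A pseudocount or the subtraction of 0.01 cannot change which mean is larger. Scaling to the same total and subtraction of the median lower every value. The log2 fold changes ranged from 0.05 to 0.21 for *Gdf9*, -0.36 to -0.19 for *Bmp15*, -0.27 to -0.03 for *Bmp6*, -0.52 to -0.34 for *Fgf8* and -0.56 to -0.20 for *Kit*. The counts of all genes past 2-fold, 1114 higher and 628 lower in Mfn1-/-, moved by more than 1.5 times under 5 settings. A pseudocount of 0.01 gave 2395 higher and 1516 lower, and one of 1 gave 209 and 110. There were 361 and 197 with a minimum average mean of 1, 2841 and 1575 with a 1.5-fold threshold, and 617 and 235 among protein-coding genes. The 1.5-fold counts follow from the lower threshold, and a larger pseudocount shrinks fold changes at low values. The minimum of 1 and the protein-coding setting count fewer rows, 6255 and 15598 of 22877. With the minimum of 1, 5.77% of rows were higher and 3.15% lower, against 4.87% and 2.75% of all rows. Other causes were not tested.

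The few list genes past 2-fold also depend on the pseudocount. With one of 0.01 there were 1 TGF-beta receptor, 1 SMAD pathway, 3 FGF ligand, 2 FGF receptor or feedback and 1 KIT signaling genes past 2-fold, against 0, 0, 1, 0 and 0. With none there were 2, 1, 4, 4 and 1, and the TGF-beta ligands went from 2 to 4, the convertases from 0 to 1 and the antagonists from 0 to 1. With a pseudocount of 1 the TGF-beta ligands had 0. Scaling to the same total, or subtraction of the median, gave 1 FGF receptor or feedback gene. With a row were 11 TGF-beta receptor, 12 SMAD pathway, 14 FGF ligand, 15 FGF receptor or feedback and 30 KIT signaling genes. Over all 22877 rows, 2395 were past 2-fold higher and 1516 lower with a pseudocount of 0.01. No such count over all rows was made without a pseudocount.

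No paired analysis was possible because the table holds 1 mean per genotype and carries no replicate numbers. For the same reason no library was left out in turn. Low levels limit *Bmp6* and, less so, *Kit*, and no difference under 2-fold was set against the spread between libraries.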
